A study of Mus musculus with 15 samples.

Results

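iNKT cells of the inguinal lymph node (iLN) were compared with iNKT cells of the spleen over all genes, using the 3 libraries labelled iLN and the 4 labelled spleen among the 15 RNAseq libraries of the series, which also hold 4 each from mesenteric lymph node (mLN) and thymus. The members were chosen by tissue label alone. All groups came from C57BL/6 WT mice aged 6 weeks with no treatment named in the labels, and the sort took TCRβ+ cells stained by CD1d tetramer loaded with PBS57 that lacked B220, CD11b, CD11c and CD8. Spleen libraries are replicates 1 to 4 and iLN libraries are replicates 2 to 4 (iLN replicate 1 was not analysed here), with replicates 1 and 2 in the batch labelled Second and 3 and 4 in the batch labelled First. Since no label tells single mice from pooled ones, p-values measure the spread between these samples. Lymph nodes were digested with collagenase, DNase and NADase at 37°C before the sort and spleens were only strained, so that tissue and digestion cannot be told apart between iLN and spleen. The mLN, which was digested in the same way as iLN, is used below for comparison.

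iNKT cells are T cells with a semi-invariant TCR that recognises lipids presented by CD1d. They leave development as subsets with ready-made programs: NKT1 cells use T-bet, make IFN-γ and carry NK cell receptors, NKT2 cells make IL-4, and NKT17 cells respond to IL-23 and IL-1 and make IL-17. NKT1 cells are the main subset in spleen of C57BL/6 mice, and NKT17 cells are known to be enriched in peripheral lymph nodes. In a sorted bulk population, more cells of a subset and more RNA of a gene per cell cannot be told apart.

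Values below are CPM, the count of a gene scaled to the summed counts of the tested genes after TMM scaling, and fold changes are those of iLN over spleen on the log2 scale, fitted with batch as a factor. A gene was called when its Benjamini-Hochberg adjusted p in edgeR's quasi-likelihood test was under 0.01 and its fold change over 1.5. A gene given below as not called was missed by this test only. Of 47 such genes named with values, DESeq2, the tool of the study, called 11 at the same thresholds. Total counts were between 4080550 and 5360793 in iLN and between 4919511 and 8670570 in spleen. Genes that overlap rRNA repeats took 27.6% of counts in iLN replicate 3, 34.6% and 23.6% in spleen replicates 3 and 4, and 3.45% to 6.74% in the other 4 libraries. Spleen replicate 1 stood apart by its B cell transcripts, with a summed level of 16 B cell markers of 982 CPM of all counts, against 188 to 294 in the other spleen libraries and 227 to 298 in iLN. Results that rest on this library are therefore also given without it.

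Of 13600 genes tested, 211 were called (1.55%), 131 of them higher in iLN (0.963%) and 80 lower (0.588%). Counts of called members in the lists below are to be read beside these shares. In the 211 called genes, 208 had no overlap between the CPM values of the iLN and the spleen libraries, against 12.9% of all tested genes. The calls were made with these same libraries, so a lack of overlap and 1 direction within each batch were largely fixed by the selection. The median log2 fold change was 1.77 among genes called higher, −1.73 among genes called lower and 0.01 over all tested genes. Every one of the 211 had the same direction within batch First and within batch Second, although with 2 against 2 libraries 81 genes were called in batch First and with 1 against 2 libraries 4 were called in batch Second. Leaving out 1 library in turn gave 108 calls without spleen replicate 4, 131 without iLN replicate 2, 138 without iLN replicate 4, 138 without spleen replicate 3, and between 149 and 170 without each of the others.

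**Figure D1:**
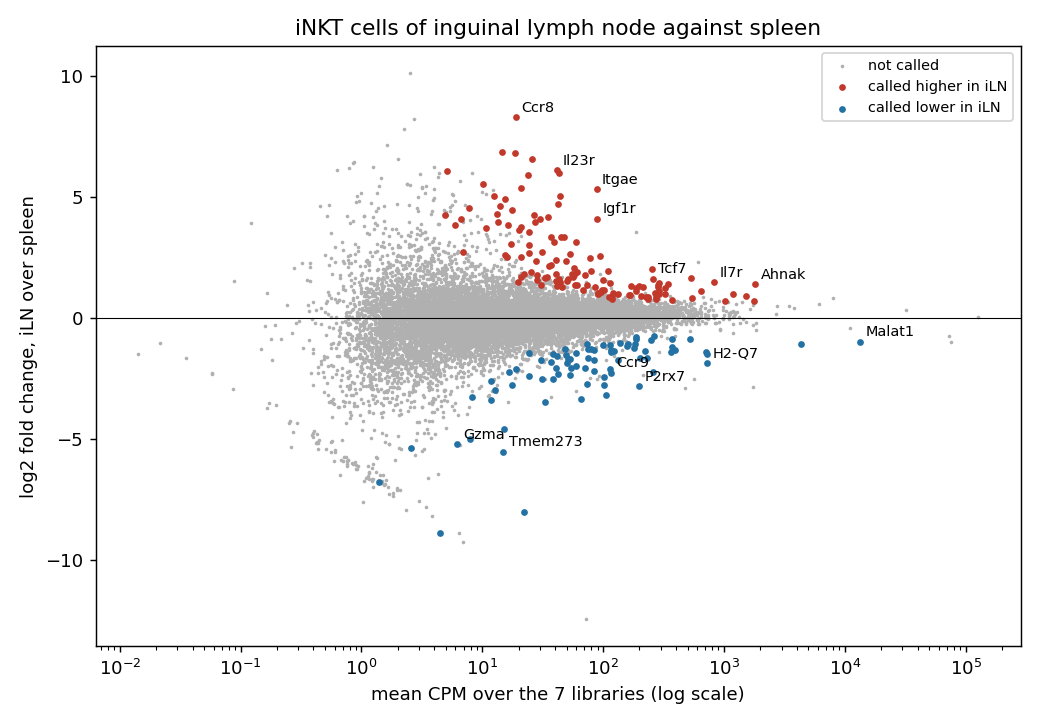
Each point is 1 of the 13600 tested genes, with its mean CPM over the 3 iLN and 4 spleen libraries on a log scale (x axis) against its log2 fold change of iLN over spleen (y axis). The 131 genes called higher in iLN (red) have a median log2 fold change of 1.77 and the 80 called lower (blue) one of −1.73, and the grey genes that were not called spread widely at low CPM.

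The sorted cells carried the transcripts of iNKT cells in both tissues. None of the 15 tested genes of the iNKT identity list was called by edgeR, and DESeq2 called 3 (2 higher and 1 lower). Of the 15, 8 were under an unadjusted p of 0.05, against 2225 of all 13600 tested genes. The median log2 fold change of the list was 0.05. Cd3e, a chain of the TCR complex, was at 1321, 1233 and 1378 CPM in iLN and 862, 1142, 1167 and 1219.9 CPM in spleen. Zbtb16, which encodes the iNKT lineage factor PLZF, was at 185, 269 and 233 CPM in iLN and 78.9, 178, 143 and 148 CPM in spleen. All 3 iLN libraries were above the 4 spleen libraries for Zbtb16, but the difference did not pass the test (log2 fold change 0.71 ± 0.21 (SE), adjusted p = 0.06195). Il2rb, the IL-2 and IL-15 receptor chain that iNKT cells depend on for survival, was the member with the most counts that was not called (log2 fold change -0.62 ± 0.19 (SE), adjusted p = 0.08901).

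Most tested NKT17 genes were higher in iLN. Of 22 genes in the list, 19 were tested, 13 were called higher in iLN and none lower, against 0.963% of all tested genes called higher. The list had a median log2 fold change of 3.51, and all 19 fold changes were above 0. This count was 10, 9 and 5 without iLN replicates 2, 3 and 4, and 8, 10, 9 and 7 without spleen replicates 1 to 4. Il23r, the receptor chain for IL-23, was at 74.1, 92.4 and 119.9 CPM in iLN and 0.494, 4.66, 0.748 and 0.203 CPM in spleen. Il23r had a log2 fold change of 6.08 ± 0.94 (SE) and adjusted p = 0.000882. Spleen replicate 2 was the highest of the spleen libraries and still far below iLN, and the fold change was 7.78 within batch First and 4.85 within batch Second. Il1r1, the receptor for IL-1, was at 65.3, 69.4 and 161 CPM in iLN and 2.57, 5.26, 2.99 and 2.44 CPM in spleen. Il1r1 had a log2 fold change of 5.04 ± 0.53 (SE) and adjusted p = 1.37e-05. Sdc1, the gene of syndecan-1, a surface proteoglycan used to mark NKT17 cells, was at 55.3, 102 and 137 CPM in iLN and 1.58, 0.451, 1.74 and 1.63 CPM in spleen. Sdc1 had a log2 fold change of 5.97 ± 0.58 (SE) and adjusted p = 9.29e-06. For both genes the groups were far apart, and the call held without each of the 7 libraries in turn.

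Ccr6, the receptor for CCL20 that marks IL-17-producing lymphocytes, was at 39.7, 27.6 and 61.1 CPM in iLN and 2.86, 0, 0.498 and 0 CPM in spleen. Ccr6 had a log2 fold change of 6.82 ± 1.38 (SE) and adjusted p = 0.00733. Of the 31 counts in spleen, 29 were in replicate 1, the library with B cell transcripts, and B cells also express this receptor. For Ccr6 the call was lost without iLN replicate 3 or 4 or without spleen replicate 1, 2, 3 or 4, with adjusted p up to 0.0342. Il17re, the receptor chain for IL-17C, was at 11.5, 24.1 and 48.9 CPM in iLN and 0, 0.751, 2.24 and 0 CPM in spleen. Il17re had a log2 fold change of 5.02 ± 0.91 (SE) and adjusted p = 0.00292, and the call was lost without iLN replicate 2 or 4, with adjusted p up to 0.0195. Serpinb1a, a protease inhibitor of neutrophils and IL-17-producing T cells, was at 24.4, 46.9 and 43.6 CPM in iLN and 0.494, 2.55, 3.74 and 0.814 CPM in spleen. Serpinb1a had a log2 fold change of 4.43 ± 0.71 (SE) and adjusted p = 0.00111. Maf, the gene of c-Maf, a factor of IL-17 programs, differed less (log2 fold change 0.91 ± 0.17 (SE), adjusted p = 0.00467), and the call was lost without iLN replicate 4 or without spleen replicate 1, 3 or 4, with adjusted p up to 0.0328. The remaining called members were Tmem176a, Tmem176b, Lingo4, Ramp1 and 5830411N06Rik, with log2 fold changes between 1.28 (Ramp1, a subunit of the receptor for the neuropeptide CGRP) and 3.61 (Lingo4). For Lingo4 the call was lost without iLN replicate 3 or 4 or without spleen replicate 3 or 4, with adjusted p up to 0.0163. For Ramp1 the call was lost without iLN replicate 2, 3 or 4 or without spleen replicate 1, 2, 3 or 4, with adjusted p up to 0.0281. For 5830411N06Rik the call was lost without iLN replicate 4 or without spleen replicate 1 or 4, with adjusted p up to 0.02001.

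Among NKT17 genes that did not pass, Blk, a Src-family kinase, was at 25.1, 27.6 and 49.4 CPM in iLN and 9.57, 0.1503, 3.74 and 0.407 CPM in spleen. Blk had a log2 fold change of 3.51 ± 1.03 (SE) and adjusted p = 0.0656. Aqp3, a channel for water and glycerol, was at 12.7, 23.03 and 34.2 CPM in iLN and 0.888, 3.01, 3.99 and 0.6101 CPM in spleen. Aqp3 had a log2 fold change of 3.27 ± 0.86 (SE) and adjusted p = 0.03703. Their groups did not overlap, and Blk in spleen was highest in replicate 1, the library with B cell transcripts. Rora was abundant in both tissues and near equal (log2 fold change 0.15 ± 0.18 (SE), adjusted p = 0.766). The cytokines of the subset were barely present. Il17a had 3 counts over the 3 iLN libraries and 0 over the 4 spleen libraries, Il17f had 9 and 8, and Il22 had none in any of the 7 libraries.

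**Figure D2:**
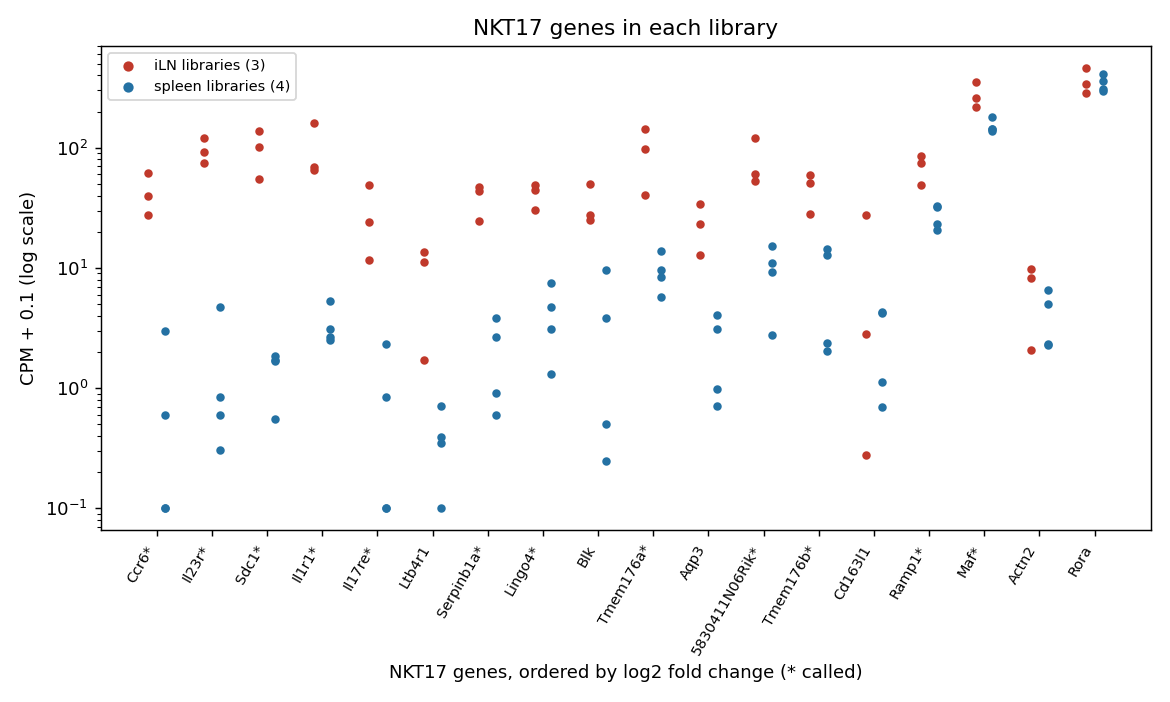
Each point is 1 library, with the CPM plus 0.1 on a log scale (y axis) for 18 of the 19 tested NKT17 genes (x axis, asterisk for called genes), iLN in red and spleen in blue. For the 12 called genes shown every red point lies above every blue point, whereas the points of Rora mix.

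Windows upstream of 2 of these genes are shown because they hold the word AGGTCA, a half-site that nuclear receptors are known to bind, which stands in capitals on either strand (TGACCT on the other). Sequences were read from RefSeq promoters of GRCm38.p6, 250 bases before the annotated start, written 5′ to 3′ on the strand of the gene. The window of Il23r is chr6:67491856-67492105 on the minus strand and that of Ccr6 is chr17:8235793-8236042 on the plus strand.
Il23r: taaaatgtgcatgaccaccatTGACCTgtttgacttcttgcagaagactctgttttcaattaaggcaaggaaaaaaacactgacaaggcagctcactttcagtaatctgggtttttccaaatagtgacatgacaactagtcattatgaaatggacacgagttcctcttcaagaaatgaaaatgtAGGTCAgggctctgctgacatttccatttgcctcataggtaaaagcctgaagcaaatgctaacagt
Ccr6: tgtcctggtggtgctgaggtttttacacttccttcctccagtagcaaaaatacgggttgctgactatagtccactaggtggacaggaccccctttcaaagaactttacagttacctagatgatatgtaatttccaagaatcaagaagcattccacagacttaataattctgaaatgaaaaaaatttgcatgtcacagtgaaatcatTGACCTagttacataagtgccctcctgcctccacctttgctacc
In Il23r the word begins 229 and 66 bases before the start, and in Ccr6 44 bases before it. Promoters were found for 10 of the 13 called NKT17 genes, 17 windows in all, and 17.6% of these held the word, against 14% of all 32851 promoters. The share among these windows was thus near that of all promoters. Counted by gene, 3 of the 10 held the word (Il23r, Ccr6 and 5830411N06Rik), and no share by gene was taken over all promoters. Of the other words searched, 7 were in none of the 17 windows on either strand. The AP-1 word TGACTCA is in 4.46% of all promoters and the CRE word TGACGTCA in 1.55%. The E-box CACGTG is in 6.02%, the STAT word TTCCAGGAA in 0.651% and AACCGGAA in 0.874%. The RUNX word TGTGGT is in 14% and AACCACA, which overlaps its complement, in 4.4%. TTTCAAAG was in 5.88% of the 17 windows and 1.43% of all, CTTTGA, which every TTTCAAAG match holds on the other strand, in 23.5% and 13.8%, CACCC in 64.7% and 52%, and GGAA in 100% and 93.4%. These 12 words were searched with the called genes known, and a match is a description of letters and not of binding.

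Several NKT1 genes and NK cell receptors were lower in iLN. Of 18 tested NKT1 genes, 5 were called lower in iLN and 1 higher, with a median log2 fold change of −0.88. Among 28 tested NK cell receptors and adaptors, 6 were called lower and none higher, with a median of −1.37 and 24 of 28 fold changes below 0. All tested genes called lower made up 0.588%. These counts leaned on single libraries. The NKT1 count fell to 3 without each iLN library in turn or without spleen replicate 4. The NK receptor count was 3, 2 and 3 without iLN replicates 2, 3 and 4 and 2 without spleen replicate 4, but it was 5 without spleen replicate 1.

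Ccl5, the chemokine that effector lymphocytes store, was at 18.5, 35.8 and 34.2 CPM in iLN and 74.8, 114, 232 and 199.5 CPM in spleen. Ccl5 had a log2 fold change of -2.46 ± 0.28 (SE) and adjusted p = 3.37e-05. Each spleen library was above each iLN library, and the call held without each of the 7 libraries in turn. Nkg7, a granule protein of cytotoxic cells, was at 87.2, 61.5 and 24.8 CPM in iLN and 156, 194, 225 and 188 CPM in spleen. Nkg7 had a log2 fold change of -1.73 ± 0.29 (SE) and adjusted p = 0.001503. Fasl, the death ligand, was at 30.9, 29.5 and 29.4 CPM in iLN and 74.9, 79.6, 87.7 and 85.8 CPM in spleen. Fasl had a log2 fold change of -1.45 ± 0.23 (SE) and adjusted p = 0.000971, with little spread within either tissue. Txk, a Tec-family kinase of the TCR pathway found in TH1-type cells, differed less (log2 fold change -0.896 ± 0.18 (SE), adjusted p = 0.00641), and the call was lost without iLN replicate 2, 3 or 4 or without spleen replicate 2 or 4, with adjusted p up to 0.0592. The fifth was Dennd4a. Tbx21, which encodes T-bet, was at 17.9, 47.1 and 23.4 CPM in iLN and 46.4, 26.7, 112 and 108 CPM in spleen. Its groups overlapped, since spleen replicates 1 and 2 were below iLN replicate 3, and it was not called (log2 fold change -1.396 ± 0.32 (SE), adjusted p = 0.0164). Ifng was at 4.13, 2.44 and 4.11 CPM in iLN and 21.3, 17.9, 17.7 and 13.02 CPM in spleen (log2 fold change -2.17 ± 0.53 (SE), adjusted p = 0.0222), without overlap between the groups, but it did not pass the test.

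The NKT1 gene that rose was Il18r1, the binding chain of the IL-18 receptor, at 611, 393 and 522 CPM in iLN and 305, 241, 162 and 159 CPM in spleen. Il18r1 had a log2 fold change of 1.403 ± 0.18 (SE) and adjusted p = 0.000121. Every iLN library was above every spleen library, and the call held without each of the 7 libraries in turn. Il18rap, the signalling chain of the same receptor, had the opposite sign and was not called (log2 fold change -0.51 ± 0.19 (SE), adjusted p = 0.171). Il12rb2, the IL-12 receptor chain of NKT1 and TH1 cells, was not called either (log2 fold change -0.86 ± 0.21 (SE), adjusted p = 0.0244).

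Among NK cell receptors, Cd160, a receptor for HVEM and class I molecules, was at 29.2, 23.6 and 28.9 CPM in iLN and 97.4, 147, 133 and 132 CPM in spleen. Cd160 had a log2 fold change of -2.199 ± 0.26 (SE) and adjusted p = 3.68e-05. The iLN values spanned 23.6 to 29.2 CPM, all below the lowest spleen value of 97.4 CPM, and the call held without each of the 7 libraries in turn. Klrd1 (CD94), which pairs with NKG2 chains, was at 8.61, 1.896 and 4.79 CPM in iLN and 35.1, 20.3, 20.2 and 24.6 CPM in spleen. Klrd1 had a log2 fold change of -2.24 ± 0.41 (SE) and adjusted p = 0.003001. Klrc2, an activating NKG2 chain, was at 25.5, 17.9 and 19.5 CPM in iLN and 119, 77.1, 81.2 and 76.1 CPM in spleen. Klrc2 had a log2 fold change of -1.98 ± 0.38 (SE) and adjusted p = 0.00502, with its highest value in spleen replicate 1. For Klrd1 the call was lost without iLN replicate 3 or 4 or without spleen replicate 4, with adjusted p up to 0.0129. For Klrc2 the call was lost without iLN replicate 2, 3 or 4 or without spleen replicate 1, 3 or 4, with adjusted p up to 0.0377. Slamf7, a SLAM-family receptor of NK and cytotoxic cells, was at 53.3, 82.1 and 122 CPM in iLN and 239, 376, 259.6 and 270.3 CPM in spleen. Slamf7 had a log2 fold change of -1.68 ± 0.302 (SE) and adjusted p = 0.00282, and the call was lost without iLN replicate 2 or 3 or without spleen replicate 4, with adjusted p up to 0.0225. Cd226 (DNAM-1), which co-stimulates NK and T cells, was called lower (log2 fold change -1.08 ± 0.18 (SE), adjusted p = 0.00129), and so was Klrb1c (NK1.1), the classical NK marker of this strain (log2 fold change -0.94 ± 0.17 (SE), adjusted p = 0.00305). For Cd226 the call was lost without iLN replicate 2, with adjusted p up to 0.0118. For Klrb1c the call was lost without iLN replicate 3 or 4 or without spleen replicate 2, 3 or 4, with adjusted p up to 0.0175. Klrk1 (NKG2D) was the receptor with the most counts that was not called (log2 fold change -0.18 ± 0.2001 (SE), adjusted p = 0.731), with 72.2 to 115 CPM in iLN and 78.1 to 120 CPM in spleen. Klrc genes are near copies of each other, and how RSEM divided fragments between them is uncertain.

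Of 15 tested cytotoxic effectors, 3 were called lower and none higher (median log2 fold change −0.58), namely Nkg7, Fasl and Gzma. Of all tested genes 0.588% were called lower. Gzma, the gene of granzyme A, had 4 counts over the iLN libraries and 275 over the spleen libraries (0.538, 0.271 and 0 CPM in iLN and 10.1, 12.6, 11.2 and 8.95 CPM in spleen). The groups were far apart although the level in spleen was itself low (log2 fold change -5.23 ± 0.92 (SE), adjusted p = 0.00234), and the call was lost without iLN replicate 3 or 4, with adjusted p up to 0.0147. Srgn, which encodes the proteoglycan that packs granules, was not called (log2 fold change 0.43 ± 0.17 (SE), adjusted p = 0.177).

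**Figure D3:**
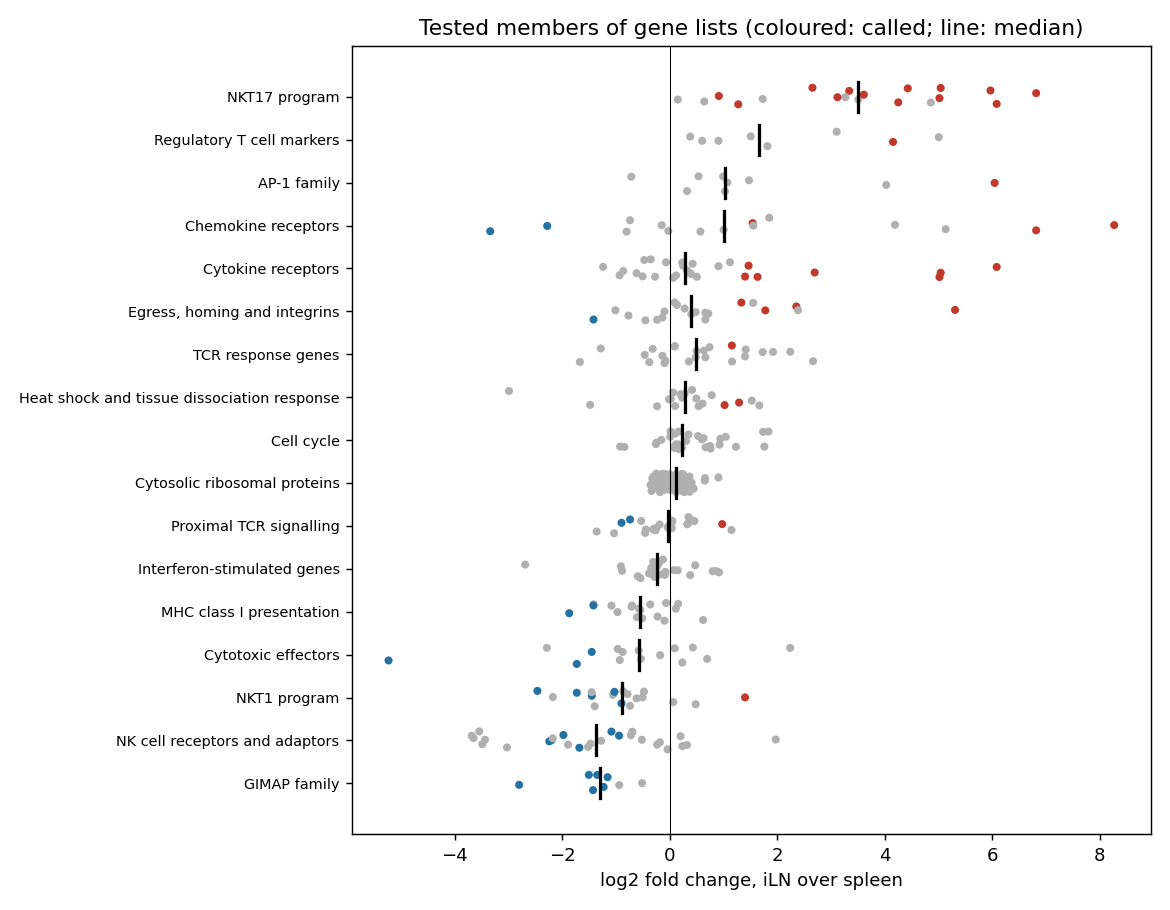
Each point is a tested gene of the list named on the y axis, with its log2 fold change of iLN over spleen on the x axis. Red and blue points were called higher and lower, grey points were not called, and a black line marks the median of each list, from 3.51 for NKT17 genes to −1.37 for NK cell receptors.

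NKT2 genes showed no common direction, with 2 of 11 tested genes called higher, none lower and a median of 0.16. Il6ra, a receptor chain for IL-6, was at 84.5, 31.97 and 45.5 CPM in iLN and 17.7, 21.5, 17.9 and 13.2 CPM in spleen. Il6ra had a log2 fold change of 1.64 ± 0.34 (SE) and adjusted p = 0.00902, and the call was lost without iLN replicate 2 or 4 or without spleen replicate 1, 2, 3 or 4, with adjusted p up to 0.117. Izumo1r, the folate receptor 4 gene found on regulatory T cells and on cells that had TCR signals, was at 89.2, 161 and 96.8 CPM in iLN and 22.8, 42.98, 53.6 and 52.5 CPM in spleen. Izumo1r had a log2 fold change of 1.33 ± 0.23 (SE) and adjusted p = 0.00198, and the call was lost without iLN replicate 2 or 3 or without spleen replicate 4, with adjusted p up to 0.0183. Gata3 (log2 fold change 0.16 ± 0.23 (SE), adjusted p = 0.805) and Il4 (log2 fold change -0.05 ± 0.54 (SE), adjusted p = 0.982) were not called. Il4 had only 99 counts over the iLN libraries and 164 over the spleen libraries, so that near equality was not shown.

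Chemokine receptors differed in both directions, with 3 of 15 tested called higher (Ccr4, Ccr6 and Ccr8) and 2 lower, among them Ccr9. Ccr8, the receptor for CCL1, was at 55.8, 65.3 and 10.8 CPM in iLN and 0.0987, 0, 0 and 0.407 CPM in spleen. It had 615 counts over the iLN libraries and 3 over the spleen libraries, a ratio of 349 after scaling with a 95% exact counting interval from 119 to 1696, and iLN replicate 4 was the lowest of the 3 (log2 fold change 8.27 ± 0.81 (SE), adjusted p = 9.29e-06). Ccr9, the receptor for the intestinal and thymic chemokine CCL25, was at 46.5, 26.8 and 28.6 CPM in iLN and 204, 212, 135 and 162 CPM in spleen. Ccr9 had a log2 fold change of -2.28 ± 0.23 (SE) and adjusted p = 1.09e-05. For both Ccr8 and Ccr9 the libraries of the tissues did not overlap and each call held without each of the 7 libraries in turn. Cxcr6, which is characteristic of iNKT cells and the member with the most counts, did not differ beyond the spread (log2 fold change -0.15 ± 0.21 (SE), adjusted p = 0.8099). Ccr7, which guides cells into lymph nodes, was at 29.2, 27.4 and 16.1 CPM in iLN and 13.3, 5.86, 5.73 and 8.34 CPM in spleen (log2 fold change 1.56 ± 0.47 (SE), adjusted p = 0.0774), without overlap but not called.

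Among 21 tested genes for egress, homing and integrins, 4 were called higher and 1 lower. Itgae encodes CD103, the integrin chain that binds E-cadherin on epithelia. It was at 165, 207 and 229 CPM in iLN and 8.09, 1.503, 3.49 and 4.68 CPM in spleen, so that all iLN libraries were far above all spleen libraries (log2 fold change 5.31 ± 0.49 (SE), adjusted p = 6.83e-06), and the log2 fold change was 5.699 within batch First and 5.02 within batch Second. Gpr183 (EBI2), a receptor for oxysterols that positions lymphocytes, was at 88.99, 91.6 and 93.7 CPM in iLN and 24.7, 17.1, 15.2 and 15.9 CPM in spleen. Gpr183 had a log2 fold change of 2.36 ± 0.26 (SE) and adjusted p = 2.54e-05. Rgs2, a regulator of G-protein signalling, was at 108, 112 and 137 CPM in iLN and 34.1, 44.9, 35.9 and 27.5 CPM in spleen. Rgs2 had a log2 fold change of 1.78 ± 0.22 (SE) and adjusted p = 7.00e-05. S1pr1, the receptor for sphingosine-1-phosphate that lets cells leave lymph nodes, was at 60.1, 93.7 and 122 CPM in iLN and 25.96, 22.8, 46.3 and 40.5 CPM in spleen. S1pr1 had a log2 fold change of 1.33 ± 0.24 (SE) and adjusted p = 0.00252, and the call was lost without iLN replicate 4 or without spleen replicate 2 or 4, with adjusted p up to 0.0192. Klf3, a repressor of the Krüppel-like family, was called lower at 173, 145 and 244 CPM in iLN and 469.7, 465, 471 and 601 CPM in spleen. Klf3 had a log2 fold change of -1.42 ± 0.21 (SE) and adjusted p = 0.000424. Klf2, a factor chosen after its values were seen that drives S1pr1 in naive T cells, was low in both tissues and not called (log2 fold change -0.45, adjusted p = 0.798). Itgal, a chain of LFA-1, was near equal (log2 fold change 0.09 ± 0.13 (SE), adjusted p = 0.804), and so was Cd69, which holds cells in tissues by opposing S1PR1 (log2 fold change -0.14 ± 0.34 (SE), adjusted p = 0.897).

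Of 28 tested cytokine receptors, 7 were called higher and none lower (median log2 fold change 0.29), against 0.963% of all tested genes called higher. Besides Il23r, Il1r1, Il17re, Il18r1 and Il6ra these were Il7r and Ifngr2. Il7r, the receptor for the survival cytokine IL-7, was at 1238, 986 and 1631 CPM in iLN and 519.9, 548, 442 and 450.1 CPM in spleen. Il7r had a log2 fold change of 1.47 ± 0.17 (SE) and adjusted p = 3.06e-05. All iLN values were above all spleen values, and the call held without each of the 7 libraries in turn. Ifngr2, the signalling chain of the IFN-γ receptor, was at 10.05, 8.398 and 20.5 CPM in iLN and 4.05, 2.55, 0.997 and 1.83 CPM in spleen. Ifngr2 had a log2 fold change of 2.697 ± 0.57 (SE) and adjusted p = 0.00946, and the call was lost without iLN replicate 3 or 4 or without spleen replicate 1, 2, 3 or 4, with adjusted p up to 0.0569. Cish, which inhibits STAT5 signalling and was the only called gene of 15 tested STAT and SOCS genes, was lower, at 12.9, 22.8 and 11.5 CPM in iLN and 55.8, 58.9, 47.6 and 50.8 CPM in spleen. Cish had a log2 fold change of -1.81 ± 0.34 (SE) and adjusted p = 0.00376, and the call was lost without iLN replicate 2 or 4 or without spleen replicate 1, 2 or 4, with adjusted p up to 0.0314.

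Of 21 tested costimulatory and inhibitory receptors, 1 was called higher and 3 lower. Icos was at 793, 787 and 1012 CPM in iLN and 341, 356, 254 and 225 CPM in spleen. Icos had a log2 fold change of 1.64 ± 0.17 (SE) and adjusted p = 1.66e-05, and the call held without each of the 7 libraries in turn. Tnfrsf18 (GITR), a costimulator of the TNF receptor family, was at 30.3, 17.6 and 19.3 CPM in iLN and 70.1, 64.5, 76 and 79.9 CPM in spleen. Tnfrsf18 had a log2 fold change of -1.69 ± 0.33 (SE) and adjusted p = 0.00557, and the call was lost without iLN replicate 3 or 4 or without spleen replicate 1, 2, 3 or 4, with adjusted p up to 0.0309. Cd160 and Cd226 were the other two. Cd28 was not called (log2 fold change 0.32 ± 0.15 (SE), adjusted p = 0.301). Among 25 tested genes of proximal TCR signalling, Pag1, an adaptor that recruits the inhibitory kinase CSK, was called higher (log2 fold change 0.98 ± 0.18 (SE), adjusted p = 0.00334), and Txk and Ptpn22, a phosphatase that restrains Src-family kinases, were called lower (Ptpn22 log2 fold change -0.74 ± 0.15 (SE), adjusted p = 0.00945). The call of Pag1 and that of Ptpn22 rested on single libraries, since for Pag1 the call was lost without iLN replicate 2, 3 or 4 or without spleen replicate 1, 2 or 4, with adjusted p up to 0.0187, and for Ptpn22 the call was lost without iLN replicate 2 or 3 or without spleen replicate 1, 2, 3 or 4, with adjusted p up to 0.0783. Ptprc (CD45) was near equal (log2 fold change 0.05 ± 0.13 (SE), adjusted p = 0.909).

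Of 24 tested genes that TCR signals induce, 1 was called higher and none lower. Their fold changes were above 0 for 16 and below 0 for 8, with a median of 0.49 on the log2 scale. Egr1 was at 75, 101 and 127 CPM in iLN and 34.6, 44.5, 48.6 and 45.4 CPM in spleen. Egr1 had a log2 fold change of 1.16 ± 0.22 (SE) and adjusted p = 0.00484, and the call was lost without iLN replicate 2, 3 or 4 or without spleen replicate 1, 3 or 4, with adjusted p up to 0.0286. Nr4a1, which encodes Nur77, was at 26.6, 26.8 and 12.7 CPM in iLN and 2.17, 0.451, 4.24 and 7.93 CPM in spleen, without overlap but not called (log2 fold change 2.67 ± 0.63 (SE), adjusted p = 0.0191). Rel, the member with the most counts, was near equal (log2 fold change -0.08 ± 0.23 (SE), adjusted p = 0.912). Of 9 tested AP-1 genes, 1 was called higher and 8 had fold changes above 0 (median 1.03). Fos had 150 counts over the iLN libraries, and its 9 counts in spleen were all in replicate 1 (6.28, 23.3 and 4.96 CPM in iLN and 0.888, 0, 0 and 0 CPM in spleen), so that it was at 0 in 3 of the 4 spleen libraries (log2 fold change 6.05 ± 1.13 (SE), adjusted p = 0.00392). For Fos the call was lost without iLN replicate 3 or without spleen replicate 2, 3 or 4, with adjusted p up to 0.0227. Fosb was at 2.69, 32.8 and 14.4 CPM in iLN and 0.296, 4.36, 0.748 and 0 CPM in spleen (log2 fold change 4.03 ± 1.12 (SE), adjusted p = 0.0512) and Fosl2 at 38.8, 109 and 29.6 CPM in iLN and 12.7, 11.9, 32.4 and 24.8 CPM in spleen (log2 fold change 1.48 ± 0.41 (SE), adjusted p = 0.0531), both with overlap.

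Immediate early and heat shock genes are also known to respond to enzymatic tissue dissociation, which here cannot be told apart from tissue. Of 19 tested genes for heat shock and tissue dissociation, 2 were called higher, Zfp36 (log2 fold change 1.02 ± 0.204 (SE), adjusted p = 0.00659) and Zfp36l1 (log2 fold change 1.29 ± 0.23 (SE), adjusted p = 0.00278), which encode proteins that destabilise mRNAs, and the median was 0.28. Jun, added after its values were seen, was not called (log2 fold change 1.07 ± 0.71 (SE), adjusted p = 0.502). For Zfp36 the call was lost without iLN replicate 2 or 3 or without spleen replicate 1, 2, 3 or 4, with adjusted p up to 0.0536. For Zfp36l1 the call was lost without iLN replicate 2 or 3 or without spleen replicate 1 or 4, with adjusted p up to 0.0349. The inducible heat shock gene Hspa1a had 0 counts over the iLN libraries and 15 over the spleen libraries, and Hspa1b had 1 and 3. Of the 15 counts of Hspa1a, 14 were in spleen replicate 1, the library with B cell transcripts, and spleen replicates 2, 3 and 4 had 1, 0 and 0. Hspa8 was near equal (log2 fold change 0.06 ± 0.17 (SE), adjusted p = 0.907). In the comparison of iLN with mLN, which were digested alike, edgeR did not call Fos (log2 fold change 0.97, adjusted p = 0.697) or Egr1 (log2 fold change -0.02, adjusted p = 0.983). A missing call there cannot separate digestion from a change shared by lymph nodes. In thymus, strained as spleen was, Egr1 was at a mean of 83.1 CPM (43.3 in spleen) and Fos at 0.0617 CPM (0.222 in spleen). The part of digestion was not tested.

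Of 21 tested lineage and memory factors, 2 were called higher, among them Tcf7, and none lower. Tcf7, the gene of TCF-1, a factor of T cell development and memory, was at 291, 455 and 529 CPM in iLN and 123, 101, 162 and 145 CPM in spleen. Tcf7 had a log2 fold change of 1.62 ± 0.19 (SE) and adjusted p = 3.68e-05. All iLN libraries were above all spleen libraries, and the call held without each of the 7 libraries in turn. Its relative Lef1 was near equal (log2 fold change -0.03 ± 0.18 (SE), adjusted p = 0.968). Ikzf3 (Aiolos), the member with the most counts, was not called (log2 fold change 0.69 ± 0.17 (SE), adjusted p = 0.0283).

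GIMAP genes encode GTPases that T lymphocytes need for survival, and the family lies in 1 cluster on chromosome 6. All 8 were tested, 6 were called lower in iLN and none higher, and the remaining 2 also had fold changes below 0 (median −1.29). The count was between 4 and 6 when each of the 7 libraries was left out in turn. Gimap4 (ENSMUSG00000054435, chromosome 6 from 48684549 to 48692060) was at 349, 423 and 322 CPM in iLN and 912, 974, 1021 and 944 CPM in spleen. Gimap4 had a log2 fold change of -1.43 ± 0.14 (SE) and adjusted p = 9.29e-06. Gimap7 was at 22.6, 17.6 and 29.9 CPM in iLN and 94.1, 128, 222 and 202 CPM in spleen. Gimap7 had a log2 fold change of -2.801 ± 0.32 (SE) and adjusted p = 2.80e-05. Gimap3 was at 409, 389 and 213 CPM in iLN and 1308, 1048, 758 and 938 CPM in spleen. Gimap3 had a log2 fold change of -1.504 ± 0.22 (SE) and adjusted p = 0.000389. Its near copy Gimap5, with an uncertain division of fragments between them, was at 43.2, 33.1 and 54.4 CPM in iLN and 126, 106, 107 and 117 CPM in spleen. Gimap5 had a log2 fold change of -1.35 ± 0.26 (SE) and adjusted p = 0.00467. In these genes the 3 iLN libraries were below the 4 spleen libraries. The calls of Gimap4, Gimap7 and Gimap3 held without each of the 7 libraries, and for Gimap5 the call was lost without iLN replicate 2 or 3 or without spleen replicate 1, 3 or 4, with adjusted p up to 0.0358. Gimap1 was the member with the most counts that was not called (log2 fold change -0.51 ± 0.17 (SE), adjusted p = 0.111).

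The GIMAP cluster ends 63 kb before Tmem176b and Tmem176a, so that genes called in opposite directions are neighbours there. Of the 14 tested genes from Gimap8 to Tmem176a (48647234 to 48847071 on chromosome 6 of GRCm38), 7 were called lower, 2 higher and 5 not called. The neighbours on one side are the 6 called GIMAP genes and Gimap1os, a transcript antisense to Gimap1 whose reads cannot be told from those of Gimap1 where the 2 overlap. Gm28053, which was not called, spans Gimap7, Gimap1os, Gimap1 and part of Gimap5, so that fragments of these genes are likewise uncertain. Those on the other side are Tmem176b (48833818 to 48841496, minus strand) and Tmem176a (48840919 to 48847071, plus strand), which overlap head to head, encode membrane proteins, and cannot be told apart where their reads overlap. Tmem176a was at 96.7, 40.4 and 142 CPM in iLN and 5.63, 9.47, 13.7 and 8.34 CPM in spleen. Tmem176a had a log2 fold change of 3.34 ± 0.53 (SE) and adjusted p = 0.00112. Tmem176b was at 27.8, 50.4 and 59.7 CPM in iLN and 2.27, 1.95, 14.2 and 12.8 CPM in spleen. Tmem176b had a log2 fold change of 2.66 ± 0.499 (SE) and adjusted p = 0.00407. The groups of both genes did not overlap, though spleen replicates 3 and 4 were higher than 1 and 2 for Tmem176b. For Tmem176a the call was lost without iLN replicate 4, with adjusted p up to 0.0124, and for Tmem176b the call was lost without iLN replicate 2, 3 or 4 or without spleen replicate 1, 2 or 4, with adjusted p up to 0.0232. The window between the starts of the pair is shown because it lies within the annotated spans of both genes (chr6:48841233-48841482 on the plus strand, 250 bases before the first RefSeq start of Tmem176a), and AGGTCA is not among its letters.
Tmem176a: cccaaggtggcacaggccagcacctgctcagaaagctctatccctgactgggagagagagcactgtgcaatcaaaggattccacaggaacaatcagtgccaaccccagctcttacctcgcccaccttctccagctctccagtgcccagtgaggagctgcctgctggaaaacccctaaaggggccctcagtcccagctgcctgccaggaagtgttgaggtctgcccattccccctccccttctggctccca

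**Figure D4:**
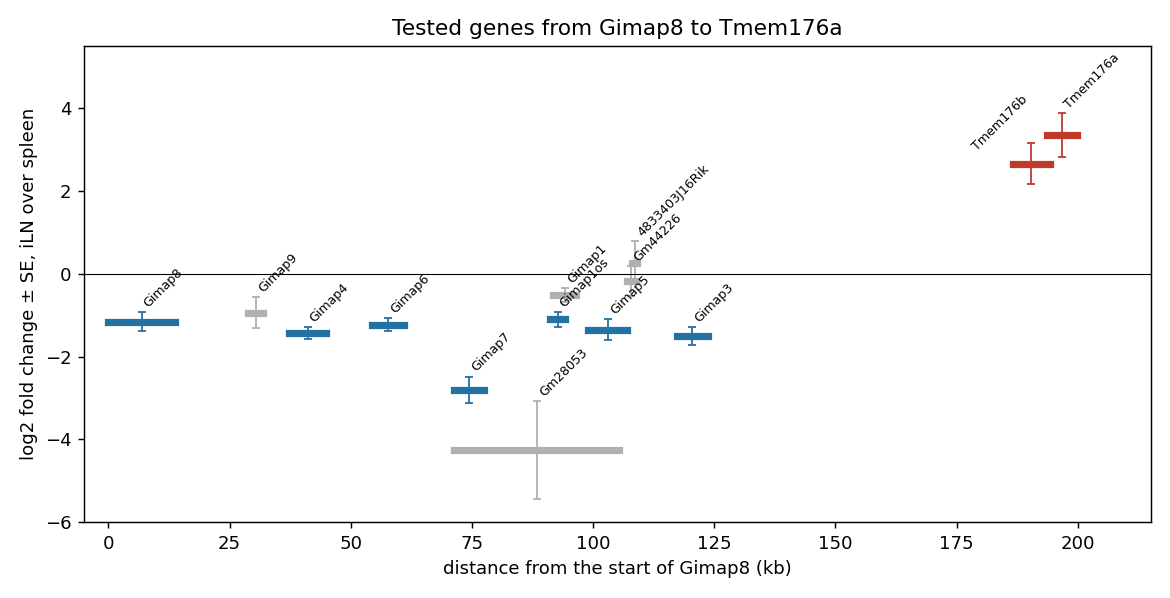
Bars span each tested gene by its distance in kb from the start of Gimap8 (x axis), at its log2 fold change of iLN over spleen with the SE (y axis). The 6 called GIMAP genes (blue, as is Gimap1os) lie between −2.80 and −1.16, and Tmem176b and Tmem176a (red) at 2.66 and 3.34, while grey genes were not called.

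Genes that act on extracellular NAD and nucleotides were grouped after their values had been seen. P2RX7 is a channel opened by ATP, or by ADP-ribosylation through ARTC2 enzymes when NAD is released, and CD38 degrades NAD. Of 10 tested genes of this group, 4 were called lower and 1 higher, against 0.588% and 0.963% of all tested genes. The group was drawn up with the calls known, so that a high share was built in. P2rx7 (ENSMUSG00000029468, chromosome 5 from 122643911 to 122691432) was at 14.7, 43.3 and 83.98 CPM in iLN and 268, 334, 273 and 363 CPM in spleen. P2rx7 had a log2 fold change of -2.83 ± 0.37 (SE) and adjusted p = 0.000117. Art2b, the ARTC2.2 enzyme of T cells, was at 43.4, 72.6 and 107 CPM in iLN and 494, 477, 278 and 344 CPM in spleen. Art2b had a log2 fold change of -2.26 ± 0.32 (SE) and adjusted p = 0.000327. Art2a-ps, annotated as a polymorphic pseudogene of the same family, was at 15.97, 21.9 and 13.7 CPM in iLN and 203, 231, 91.2 and 166 CPM in spleen. Art2a-ps had a log2 fold change of -3.18 ± 0.31 (SE) and adjusted p = 9.29e-06. All iLN values of the 3 genes were below all spleen values, and the 3 calls held without each of the 7 libraries in turn. Cd38 was at 32.5, 10.3 and 26.9 CPM in iLN and 98.8, 64.02, 61.8 and 81.6 CPM in spleen. Cd38 had a log2 fold change of -1.69 ± 0.33 (SE) and adjusted p = 0.00617, and the call was lost without iLN replicate 2, 3 or 4 or without spleen replicate 1, 3 or 4, with adjusted p up to 0.0257. Nt5e (CD73), which makes adenosine from AMP, was called higher, at 61.5, 123 and 56.3 CPM in iLN and 29.3, 29.8, 33.4 and 19.9 CPM in spleen. Nt5e had a log2 fold change of 1.52 ± 0.26 (SE) and adjusted p = 0.00206, and the call was lost without iLN replicate 3 or without spleen replicate 4, with adjusted p up to 0.0137. NADase was part of the digestion of lymph nodes, and P2rx7 was at a mean of 323 CPM in mLN, digested likewise, against 47.3 CPM in iLN. The part of digestion in the levels of this group was not tested.

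Genes of the cytoskeleton and calcium-binding S100 proteins formed another group noticed after the values were seen, with 8 of 24 cytoskeletal linkers and filaments and 5 of 19 S100, galectin and annexin genes called higher and none lower. Of all tested genes 0.963% were called higher, but these lists were drawn up with the calls known, so that high shares were built in. Vim (vimentin) was at 70.9, 102 and 137 CPM in iLN and 18.1, 9.62, 24.4 and 12.6 CPM in spleen. Vim had a log2 fold change of 2.64 ± 0.305 (SE) and adjusted p = 3.39e-05. S100a4 was at 95.8, 72.1 and 195 CPM in iLN and 6.71, 10.5, 23.2 and 12.6 CPM in spleen. S100a4 had a log2 fold change of 3.15 ± 0.43 (SE) and adjusted p = 0.000241. S100a11 was at 483, 309 and 533 CPM in iLN and 78.96, 147, 118 and 99.05 CPM in spleen. S100a11 had a log2 fold change of 2.03 ± 0.21 (SE) and adjusted p = 1.09e-05. Ahnak, a very large membrane scaffold protein, was at 2552, 2627 and 3118 CPM in iLN and 1242, 1295, 864 and 976 CPM in spleen. Ahnak had a log2 fold change of 1.38 ± 0.14 (SE) and adjusted p = 1.09e-05. For these 4 genes the groups did not overlap, and each call held without each of the 7 libraries. Among larger scaffolds, Flna (filamin A, 1.29), Plec (plectin, 1.42), Myh9 (non-muscle myosin heavy chain, 1.09), Msn (moesin, 0.88), Iqgap1 (0.72) and Coro2b, a coronin (3.95), were called higher on the log2 scale. Plec, Msn and Iqgap1 were called with less stability. For Plec, whose groups overlapped, the call was lost without iLN replicate 3 or 4 or without spleen replicate 4, with adjusted p up to 0.0175. For Msn the call was lost without iLN replicate 4 or without spleen replicate 3 or 4, with adjusted p up to 0.0193. For Iqgap1 the call was lost without iLN replicate 3 or 4 or without spleen replicate 2, 3 or 4, with adjusted p up to 0.0317. S100a6 (log2 fold change 1.69 ± 0.34 (SE), adjusted p = 0.00689) and Lgals3, the gene of galectin-3 (log2 fold change 3.703 ± 0.75 (SE), adjusted p = 0.00751), were likewise less stable, since for S100a6 the call was lost without iLN replicate 2 or 4 or without spleen replicate 1, 2 or 4, with adjusted p up to 0.0786, and for Lgals3 the call was lost without iLN replicate 2 or 4 or without spleen replicate 1, 2, 3 or 4, with adjusted p up to 0.0588. Of 13 tested sialyltransferases, likewise grouped after the fact, 4 were called higher and none lower, against 0.963% of all tested genes called higher. A high share was built into this list as well. St6gal1, which adds α2,6-linked sialic acid to N-glycans, was at 205, 141 and 189 CPM in iLN and 27.6, 27.4, 34.4 and 32.5 CPM in spleen. St6gal1 had a log2 fold change of 2.54 ± 0.23 (SE) and adjusted p = 6.83e-06. St8sia1 (log2 fold change 2.51 ± 0.32 (SE), adjusted p = 9.87e-05), St8sia6 (log2 fold change 2.16 ± 0.36 (SE), adjusted p = 0.00158) and St3gal1 (log2 fold change 1.27 ± 0.25 (SE), adjusted p = 0.00698) were the other three, and for St3gal1 the call was lost without iLN replicate 3 or 4 or without spleen replicate 1, 2, 3 or 4, with adjusted p up to 0.0334. For St8sia6 the call was lost without spleen replicate 3 or 4, with adjusted p up to 0.0124.

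Of 18 tested genes of MHC class I presentation, 2 were called lower and 15 had fold changes below 0 (median −0.56). H2-Q7, a gene of the Qa-2 antigen, was at 279, 312 and 254 CPM in iLN and 1521, 865, 802 and 1060.2 CPM in spleen. H2-Q7 had a log2 fold change of -1.87 ± 0.22 (SE) and adjusted p = 3.93e-05, with iLN values of 254 to 312 CPM all below the lowest spleen value of 802 CPM. Nlrc5, the transactivator of class I genes, was at 56.5, 76.1 and 46.5 CPM in iLN and 161, 136, 142 and 194 CPM in spleen. Nlrc5 had a log2 fold change of -1.42 ± 0.23 (SE) and adjusted p = 0.00129, and the call was lost without iLN replicate 2, with adjusted p up to 0.0103. B2m was near equal (log2 fold change 0.16 ± 0.16 (SE), adjusted p = 0.702). H2-Q genes are near copies, and the fall of H2-Q5 (log2 fold change -2.72 ± 0.42 (SE), adjusted p = 0.000886) and H2-Q10 (log2 fold change -2.36 ± 0.47 (SE), adjusted p = 0.00651), noticed afterwards, is uncertain in how fragments were divided between them. For H2-Q10 the call was lost without iLN replicate 2 or 4 or without spleen replicate 1, 3 or 4, with adjusted p up to 0.0501.

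Several lists held no called gene. None of 19 tested survival and death genes, 31 cell cycle genes, 25 interferon-stimulated genes, 80 cytosolic ribosomal protein genes and 13 mitochondrially encoded proteins was called by edgeR. At an unadjusted p under 0.05 these lists held 4, 4, 4, 5 and 6 genes, against 2225 of all 13600 tested genes. Mitochondrially encoded proteins had 12 of 13 fold changes above 0. DESeq2 called 1 cell cycle gene and 1 ribosomal protein gene, both higher in iLN. Cell cycle genes had 26 of 31 fold changes above 0 (median 0.23), and Ccnd2 was the member with the most counts (log2 fold change 0.12 ± 0.12 (SE), adjusted p = 0.706). Mki67, a marker of cycling cells, ranged from 15.2 to 80.2 CPM in iLN and from 7.48 to 77.8 CPM in spleen (log2 fold change 0.75 ± 0.59 (SE), adjusted p = 0.589). Interferon-stimulated genes had 18 of 25 fold changes below 0 (median −0.23). Medians were 0.11 for ribosomal proteins, −0.28 for survival genes and 0.50 for mitochondrially encoded proteins, and the members with the most counts were Rps4x (log2 fold change 0.24 ± 0.18 (SE), adjusted p = 0.588), Cflar (log2 fold change 0.08 ± 0.14 (SE), adjusted p = 0.839) and mt-Co1 (log2 fold change 0.58 ± 0.16 (SE), adjusted p = 0.0531). Of 18 tested glycolysis genes, Slc2a3, a glucose transporter, was called lower (log2 fold change -1.37 ± 0.24 (SE), adjusted p = 0.00234), while Gapdh was near equal (log2 fold change 0.23 ± 0.14 (SE), adjusted p = 0.455). Leaving out spleen replicate 4 ended the call of Slc2a3. Of the tested ligands, Tnfsf10 (TRAIL) had the most counts among those not called (log2 fold change -0.58 ± 0.22 (SE), adjusted p = 0.169).

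Among genes called in either direction that averaged 5 CPM or more and moved 1 way in replicates 2, 3 and 4, the largest fold changes outside the lists were those of Zfp462, Kcnc1 and Mmp25 upward and Tmem273, Ankmy1, Hic1, Gm4956 and Mir142hg downward. Zfp462, a zinc finger gene, was at 29.2, 32.5 and 38.5 CPM in iLN and 0, 0, 1.25 and 0.203 CPM in spleen. Zfp462 had a log2 fold change of 6.86 ± 0.996 (SE) and adjusted p = 0.000899. Kcnc1, a voltage-gated potassium channel gene, was at 64.95, 66.4 and 46.7 CPM in iLN and 0.0987, 0, 0 and 2.64 CPM in spleen. Kcnc1 had a log2 fold change of 6.54 ± 0.92 (SE) and adjusted p = 0.000327. Mmp25, a membrane-anchored matrix metalloproteinase gene, was at 37.9, 47.4 and 79.4 CPM in iLN and 0.296, 0.301, 1.99 and 1.22 CPM in spleen. Mmp25 had a log2 fold change of 5.896 ± 0.73 (SE) and adjusted p = 7.12e-05. Spleen values of these 3 genes were at most 2.64 CPM. Tmem273 was at 0, 0 and 1.54 CPM in iLN and 38.1, 18.6, 18.9 and 27.1 CPM in spleen. Tmem273 had a log2 fold change of -5.54 ± 0.78 (SE) and adjusted p = 0.0003304. Ankmy1 was at 0, 0.271 and 1.03 CPM in iLN and 8.49, 17.4, 12.7 and 15.7 CPM in spleen. Ankmy1 had a log2 fold change of -5.01 ± 0.89 (SE) and adjusted p = 0.002598. Hic1, a transcriptional repressor gene, was at 0.179, 1.896 and 1.37 CPM in iLN and 6.91, 13.5, 42.9 and 38.8 CPM in spleen. Hic1 had a log2 fold change of -4.59 ± 0.69 (SE) and adjusted p = 0.000639, with spleen values that were higher in batch First than in batch Second. Gm4956, a pseudogene, was called lower (log2 fold change -3.48 ± 0.61 (SE), adjusted p = 0.00234), as was Mir142hg, the host transcript of miR-142 (log2 fold change -3.401 ± 0.68 (SE), adjusted p = 0.00664). Single libraries decided some of these calls. Zfp462 lost its call without iLN replicate 2, with adjusted p up to 0.0153. Ankmy1 did so without iLN replicate 2 or 3 or without spleen replicate 4, with adjusted p up to 0.0143, Gm4956 without iLN replicate 2 or 3 or without spleen replicate 4, with adjusted p up to 0.01597, and Mir142hg without iLN replicate 2 or 4 or without spleen replicate 1, 3 or 4, with adjusted p up to 0.0456.

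Some of the genes with the most counts were also called. Pabpc1, the poly(A)-binding protein gene, was higher (log2 fold change 0.67 ± 0.14 (SE), adjusted p = 0.00825), as was Laptm5, a lysosomal protein gene of lymphocytes (log2 fold change 0.703 ± 0.13 (SE), adjusted p = 0.00339). Malat1, a nuclear long non-coding RNA, fell, at 10623, 6826 and 6444 CPM in iLN and 23407, 20524, 13121 and 12162 CPM in spleen. Malat1 had a log2 fold change of -0.99 ± 0.17 (SE) and adjusted p = 0.00234, with spleen values higher in batch Second than in batch First. Lyst, a gene of lysosome trafficking, was lower as well (log2 fold change -0.89 ± 0.16 (SE), adjusted p = 0.00252). Without iLN replicate 2 the call of Malat1 was lost. For Pabpc1 the call was lost without iLN replicate 3 or 4 or without spleen replicate 1, 2, 3 or 4, with adjusted p up to 0.0537. For Laptm5 the call was lost without iLN replicate 2 or without spleen replicate 2, with adjusted p up to 0.0407, and for Lyst the call was lost without iLN replicate 3 or 4 or without spleen replicate 4, with adjusted p up to 0.0135.

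Genes chosen after their values were seen add receptors and factors with large differences. Igf1r, the receptor for IGF-1, was at 203, 188 and 191 CPM in iLN and 14.5, 8.12, 13.2 and 7.53 CPM in spleen. Igf1r had a log2 fold change of 4.09 ± 0.41 (SE) and adjusted p = 9.29e-06, with 4.18 within batch First and 4.14 within batch Second. Ptgdr2, the prostaglandin D2 receptor CRTH2, was at 19.02, 23.03 and 53.02 CPM in iLN and 0.395, 2.104, 0.498 and 0.814 CPM in spleen. Ptgdr2 had a log2 fold change of 4.602 ± 0.94 (SE) and adjusted p = 0.00753, and the call was lost without iLN replicate 2, 3 or 4 or without spleen replicate 1, 3 or 4, with adjusted p up to 0.0925. Cysltr1 rose (log2 fold change 3.82 ± 0.67 (SE), adjusted p = 0.00234) and Cysltr2 fell (log2 fold change -2.096 ± 0.37 (SE), adjusted p = 0.00247), both receptors for cysteinyl leukotrienes, but Cysltr1 lost its call without iLN replicate 2 or 4 or without spleen replicate 2 or 4, with adjusted p up to 0.0235, and Cysltr2 without iLN replicate 2 or 4 or without spleen replicate 4, with adjusted p up to 0.0265. Sox13, a factor of IL-17-producing γδ T cells, was at 24.9, 31.4 and 29.6 CPM in iLN and 0.296, 1.202, 3.74 and 0.814 CPM in spleen. Sox13 had a log2 fold change of 4.297 ± 0.75 (SE) and adjusted p = 0.00234, and the call was lost without iLN replicate 2 or without spleen replicate 1 or 4, with adjusted p up to 0.0188. Hlf, a bZIP factor of the PAR family, was at 57.8, 22.5 and 62.3 CPM in iLN and 1.48, 0.301, 0.748 and 1.83 CPM in spleen. Hlf had a log2 fold change of 5.37 ± 0.89 (SE) and adjusted p = 0.00143, and the call was lost without iLN replicate 2, with adjusted p up to 0.0347. Gcnt1, an enzyme of core 2 O-glycans on cell surface proteins, was at 36.2, 39.3 and 28.9 CPM in iLN and 5.82, 3.16, 4.73 and 3.86 CPM in spleen. Gcnt1 had a log2 fold change of 3.04 ± 0.47 (SE) and adjusted p = 0.000893. Runx2, a factor of the Runt family, was at 45.4, 51.7 and 92.2 CPM in iLN and 20.6, 10.8, 17.2 and 11.8 CPM in spleen. Runx2 had a log2 fold change of 2.15 ± 0.37 (SE) and adjusted p = 0.00198, and the call was lost without iLN replicate 4 or without spleen replicate 4, with adjusted p up to 0.0168. Klrg1, a receptor of terminally differentiated NK and T cells, was at 0, 1.08 and 1.197 CPM in iLN and 10.2, 5.41, 6.98 and 7.12 CPM in spleen and was not called (log2 fold change -3.44 ± 1.09 (SE), adjusted p = 0.09499). Efnb1, the gene of ephrin-B1, had 0 counts over the iLN libraries and 183 over the spleen libraries, which makes it at least 35.9-fold lower in iLN against a floor of 3 counts over the group, at 0, 0 and 0 CPM in iLN and 6.42, 2.25, 8.72 and 13.8 CPM in spleen, although the call was lost without iLN replicate 2, 3 or 4 or without spleen replicate 1, 2, 3 or 4, with adjusted p up to 0.03596.

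Markers of other cells moved with some of these groups. Of 5 tested markers of CD8 and γδ T cells, Tcrg-C1 (log2 fold change 1.23 ± 0.23 (SE), adjusted p = 0.00339) and Tcrg-C2 (log2 fold change 0.97 ± 0.19 (SE), adjusted p = 0.00617) were called higher, and Tcrg-C4 was not (log2 fold change 0.54 ± 0.23 (SE), adjusted p = 0.234). They are near copies, so the division of fragments between them is uncertain, and the groups overlapped for Tcrg-C2. The summed level of the 7 markers was 537 to 1056 CPM of all counts in iLN and 281 to 655 in spleen, with Tcrg-C2 highest in each library. The sum therefore says little of CD8 T cells. Cd8a had 17 counts over the iLN libraries and 121 over the spleen libraries, of which 91 were in spleen replicate 1. Cd8b1 had 61 and 53. Trdc, which defines γδ T cells, had 1, 0 and 0 counts in the iLN libraries and 2, 2, 0 and 4 in the spleen libraries. The part of γδ T cells in the levels of the Tcrg and NKT17 genes was not tested. For Tcrg-C1 the call was lost without iLN replicate 4 or without spleen replicate 2, 3 or 4, with adjusted p up to 0.0246, and for Tcrg-C2 the call was lost without iLN replicate 4 or without spleen replicate 1, 2, 3 or 4, with adjusted p up to 0.0422.

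All 8 regulatory T cell markers had fold changes above 0 (median 1.66), with summed levels of 653 to 920 CPM of all counts in iLN and 303 to 622 in spleen, and 1 was called. Capg, an actin-capping protein gene, was at 50.8, 112 and 67.05 CPM in iLN and 3.85, 1.202, 8.47 and 2.24 CPM in spleen. Capg had a log2 fold change of 4.16 ± 0.42 (SE) and adjusted p = 1.09e-05. Foxp3, which defines regulatory T cells, was at 10.6, 15.2 and 6.5 CPM in iLN and 0.987, 0.301, 1.495 and 2.24 CPM in spleen, without overlap but not called (log2 fold change 3.11 ± 1.14 (SE), adjusted p = 0.157). Il2ra (log2 fold change 0.91 ± 0.24 (SE), adjusted p = 0.0381), Nrp1 (log2 fold change 1.51 ± 0.33 (SE), adjusted p = 0.0119) and Ikzf2 (log2 fold change 0.38 ± 0.16 (SE), adjusted p = 0.228) were not called. Their part in the higher levels of Icos, Izumo1r, Capg and Itgae, which regulatory T cells also express, was not tested.

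Red cell markers (7 of 8 found in the files) summed to 0.560 to 5.14 CPM of all counts in iLN and 24.2 to 112 in spleen, and Hbb-bs was called lower, with 2 counts over the iLN libraries and 926 over the spleen libraries, a ratio of 272 with an interval from 75.1 to 2250. For Hbb-bs the call was lost without iLN replicate 2, 3 or 4 or without spleen replicate 3, with adjusted p up to 0.0174. Myeloid markers (15) summed to 9.89 to 22.8 in iLN and 16.9 to 105 in spleen, highest in replicate 1, with 11 or 12 of them at 0 in iLN. Of the 12 stromal and endothelial markers, 9 to 11 were at 0 in each of the 7 libraries and nearly all counts were those of Pecam1, at 67.3, 76.1 and 65.9 CPM in iLN and 52.9, 34.3, 57.1 and 55.5 CPM in spleen. Pecam1 had a log2 fold change of 0.501 ± 0.27 (SE) and adjusted p = 0.383, and T cells also express it. None of 13 tested B cell markers and 5 tested myeloid markers was called by edgeR or by DESeq2. Under an unadjusted p of 0.05 were 0 and 1 of them, against 2225 of all 13600 tested genes. Ighm, with most of the B cell counts, was at 202, 217 and 179 CPM in iLN and 208, 181, 216 and 233 CPM in spleen, and Ms4a1 (CD20), which defines B cells, was at 4.31, 2.17 and 3.25 CPM in iLN and 31.2, 3.31, 2.24 and 3.25 CPM in spleen, highest in spleen replicate 1. Leaving out spleen replicate 1, the library with the highest B cell and myeloid levels, gave 149 calls, of which 140 were among the 211.

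The comparison of iLN with mLN in the same fit shows where the inguinal node differed from the other lymph node, since it equals the difference of their changes against spleen. Of 13600 genes, 64 were called between iLN and mLN (0.471%). P2rx7 was at a mean of 323 CPM in the 4 mLN libraries and at 47.3 ± 34.8 CPM (SD, n = 3) in iLN and 309.8 ± 46.7 CPM (SD, n = 4) in spleen (iLN against mLN log2 fold change -2.898, adjusted p = 0.000203). Art2b and Art2a-ps differed likewise (Art2b log2 fold change -2.46, adjusted p = 0.000285; Art2a-ps log2 fold change -3.09, adjusted p = 2.71e-05), as did Cd38 (log2 fold change -1.96, adjusted p = 0.00412). Vim and S100a4 were at means of 11.03 and 8.31 CPM in mLN and 16.2 and 13.3 CPM in spleen, against 103 CPM and 121 CPM in iLN (Vim log2 fold change 3.17, adjusted p = 2.71e-05; S100a4 log2 fold change 3.798, adjusted p = 0.000108).

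Ccr9 was at a mean of 336 CPM in mLN, 178 CPM in spleen and 33.95 CPM in iLN (log2 fold change -3.15, adjusted p = 1.32e-06). Itgae was at a mean of 13.98 CPM in mLN (log2 fold change 3.85, adjusted p = 0.000108) and Il18r1 at 185 CPM (log2 fold change 1.65, adjusted p = 6.21e-05). Among GIMAP genes, Gimap4 (log2 fold change -1.24, adjusted p = 6.21e-05), Gimap7 (log2 fold change -2.19, adjusted p = 0.000608) and Gimap3 (log2 fold change -1.18, adjusted p = 0.00671) were lower in iLN than in mLN as well. Of the NKT17 genes, Sdc1 (log2 fold change 2.78, adjusted p = 0.006695), Maf (log2 fold change 1.002, adjusted p = 0.00472) and 5830411N06Rik (log2 fold change 5.23, adjusted p = 0.000116) were called between the lymph nodes. Il23r and Il1r1 were not called there (Il23r log2 fold change 3.38, adjusted p = 0.0393; Il1r1 log2 fold change 2.43, adjusted p = 0.0118), with means of 9.36 and 19.97 CPM in mLN that lay between those of spleen and iLN. The differences of Tcf7 (log2 fold change 0.15, adjusted p = 0.787) and Cd160 (log2 fold change -0.82, adjusted p = 0.111) between the lymph nodes were not called. Several of these traits were not particular to iLN, since thymus shared them. Thymus means were low for P2rx7 (14.7 CPM), Art2b (28.96), Art2a-ps (5.49) and Ccr9 (41.2), and high for Itgae (262) and Vim (156). Those of Gimap4 (623) and S100a4 (27.2) lay between spleen and iLN, and that of Sdc1 (1.76) was near spleen.

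**Figure D5:**
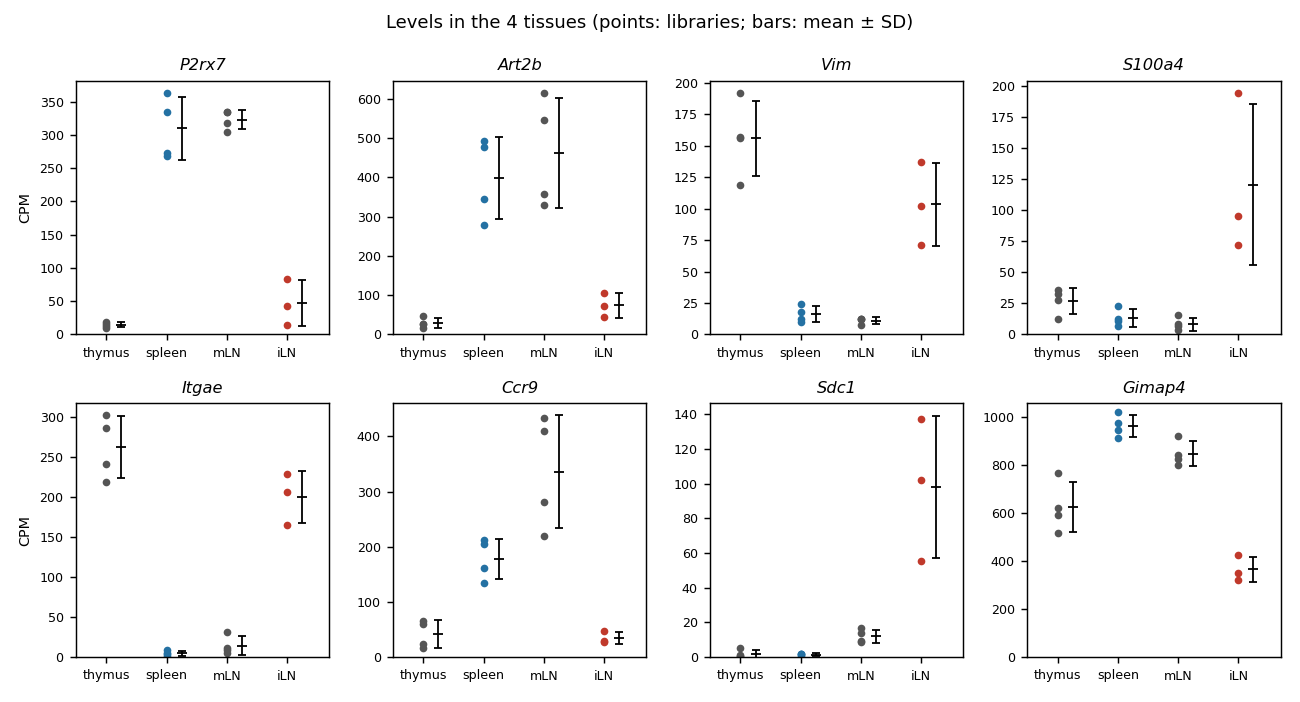
CPM (y axis) of 8 genes in the thymus, spleen, mLN and iLN libraries (x axis), 1 point per library with the mean and SD as bars. P2rx7, Art2b, Ccr9 and Gimap4 are lower in iLN than in every spleen and mLN library, while Vim, S100a4, Itgae and Sdc1 are higher. Thymus means are also low for P2rx7 (14.7), Art2b (28.96) and Ccr9 (41.2), and also high for Vim (156) and Itgae (262). Those of Gimap4 (623) and S100a4 (27.2) lie between spleen and iLN, and that of Sdc1 (1.76) is near spleen.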

How the data were processed

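iNKT cells were sorted from iLN, mLN, spleen and thymus of WT mice, and RNAseq libraries were made from amplified cDNA with a kit that does not mark strand. Per the labels, the authors trimmed reads with cutadapt (v. 1.7.1) and estimated expected counts and TPM per gene with RSEM (v. 1.2.31) and Bowtie2 (v. 2.2.9) on GRCm38.p6. The deposited expected counts were rounded to whole numbers, and the deposited TPM values were read but are not reported. Genes were kept by filterByExpr and tested with edgeR (v. 4.0.16, R v. 4.3.3) by the robust quasi-likelihood test with TMM scaling and a model of tissue plus batch over all 15 libraries, so that the spread was shared by the 4 tissues. The study's methods used DESeq2, which was run here (v. 1.42.0) as an alternative. Genes with Benjamini-Hochberg adjusted p under 0.01 and a fold over 1.5 were called. Symbols and positions came from the GENCODE annotation of the same build.

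Genes named in the text were, per list, the called members with at least 1 CPM (up to 4 by fold change) and the member with the most counts that was not called, the 8 largest changes in each direction with at least 5 CPM and 1 direction in replicates 2, 3 and 4, the 6 called genes with the most counts in each direction, and called or abundant markers of other cells. Others are named as chosen after their values were seen, which also holds for Il18rap, Il12rb2, Tbx21, Ifng, Blk, Aqp3, Zbtb16, Ccr7, Gata3, Il4, Cd69, Lef1, Nr4a1, Fosb, Fosl2, Mki67 and further members of the lists beyond that rule. A few genes of these lists are not reported here. The lists and the comparison were chosen with earlier results of these data known. Ratios of low counts carry exact 95% intervals for counting error only, with a floor of 3 counts. The fit was tested on simulated data. In the simulation of iLN against spleen with 13600 genes, the fit called 6.54% of the genes given a log2 fold change of 1 and 34.5% of those given 2. Replicates of a group differed by more than sampling noise, with correlations of log2 CPM from 0.870 to 0.963. Alternatives were other normalization, filters, batch terms, thresholds, thinned counts, and each library left out in turn.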

Additional observations from a re-analysis of the deposited data

Results flagged for a closer look

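In 12 of 156 sets of 4 spleen values tested, 1 library stood apart from the other 3 by Dixon's criterion (the gap to the nearest, as a share of the range), where chance marks about 1 in 20. The CPM values, or for B cell markers the summed CPM of all counts, were Il23r at 4.66 in replicate 2 (others 0.203 to 0.748), Sdc1 at 0.451 in replicate 2 (others 1.58 to 1.74), Klrc2 at 119 in replicate 1 (others 76.1 to 81.2), Klf3 at 601 in replicate 4 (others 465 to 471), Fos at 0.888 in replicate 1 (others 0 to 0), Ms4a1 at 31.2 in replicate 1 (others 2.24 to 3.31), S100a6 at 30.6 in replicate 3 (others 13.1 to 13.8), Cysltr1 at 4.49 in replicate 3 (others 1.503 to 1.97), Maf at 179 in replicate 2 (others 139 to 144), Zfp462 at 1.25 in replicate 3 (others 0 to 0.203), Kcnc1 at 2.64 in replicate 4 (others 0 to 0.0987) and B cell markers summed at 982 in replicate 1 (others 188 to 294). Their cause was not tested.

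For 33 of 147 genes named with their fold change or values the change of iLN against spleen differed from that of mLN against spleen, by the test of iLN against mLN in edgeR. The difference on the log2 scale, with its adjusted p in parentheses, was above 0 for Il18r1 1.65 (6.21e-05), Sdc1 2.78 (0.006695), Klrk1 1.52 (0.000328), Itgae 3.85 (0.000108), Icos 1.15 (0.00101), Ikzf3 0.96 (0.00672), Capg 2.61 (0.000959), St6gal1 1.61 (0.000522), S100a4 3.798 (0.000108), S100a6 2.88 (0.000156), S100a11 1.27 (0.00261), Lgals3 5.43 (0.00147), Ahnak 1.603 (6.35e-06), Vim 3.17 (2.71e-05), Coro2b 3.401 (0.000185), Ptgdr2 8.03 (0.000608), Igf1r 2.196 (0.00382), Hlf 6.13 (0.00127), Runx2 2.63 (0.000743), Maf 1.002 (0.00472), 5830411N06Rik 5.23 (0.000116), Zfp462 7.76 (0.000936) and Il7r 1.18 (0.000608). It was below 0 for Ccr9 -3.15 (1.32e-06), Gimap7 -2.19 (0.000608), Gimap3 -1.18 (0.00671), Gimap4 -1.24 (6.21e-05), Art2a-ps -3.09 (2.71e-05), Art2b -2.46 (0.000285), P2rx7 -2.898 (0.000203), Cd38 -1.96 (0.00412), Tmem273 -6.56 (0.000156) and Hic1 -4.73 (0.0009804). Both changes share the spleen libraries, which cancel in this difference. The 3 iLN libraries do not cancel, and 100 of the 147 genes were called between iLN and spleen with them. The count of 33 is therefore not comparable with the 64 of 13600 tested genes (0.471%) called between iLN and mLN.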

How the results depend on the processing

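All 211 genes called between iLN and spleen kept their direction under each alternative in which they were tested. The number called was not stable. It was 556 (333 higher and 223 lower) with DESeq2, which includes all 211, and 544 (314 and 230) with no filter on low counts. It was 129 (74 and 55) without batch, 86 (58 and 28) in the 7 libraries alone, 81 (54 and 27) in batch First and 4 (1 and 3) in batch Second. It was 517 (319 and 198) at an adjusted p under 0.05 and 84 (56 and 28) with glmTreat against a fold of 1.5. Leaving out each library gave 108 to 170 (70 to 102 higher, 38 to 68 lower). The other alternatives gave 175 to 224. Without the filter the median log2 fold change of all genes was −0.12, and in batch Second −0.13. Between iLN and mLN the 64 calls became 276 with DESeq2, 279 with no filter, 40 without batch, 23 in batch First, 3 in batch Second, 182 at an adjusted p under 0.05 and 30 with glmTreat. Without single mLN libraries, an alternative chosen after seeing the data, there were 44 to 59. With the replicate block in place of batch, 175 genes were called between iLN and spleen and 62 between iLN and mLN. Deviations of same-numbered iLN and spleen libraries correlated at 0.177, 0.1498 and 0.0385, and not every library correlated best with its own number. These deviations still hold batch differences, so they cannot decide whether same-numbered libraries share animals. The labels do not state this, and the numbers were not taken as pairs. The paper itself used a paired t-test for clonotype frequencies from its RNAseq samples. Of 19 tested NKT17 genes, 6 were called in batch First and none in batch Second, where 1 iLN library was set against 2 spleen libraries. Of the 47 named genes that edgeR did not call, DESeq2 called 11 in the same direction. Log2 fold changes turned sign only in genes that were not called. In batch Second the sign turned for Rora (-0.216), Klrk1 (0.144), Cxcr6 (0.218), Itgal (-0.0401), Ptprc (-0.189), Ighm (0.0389), Gata3 (-0.42), Il4 (0.361), Mki67 (-0.662) and Cd69 (0.792). In batch First the sign turned for Rel (0.317), Hspa8 (-0.0338), B2m (-0.0692), Rps4x (-0.03801) and Klf2 (0.2501). Without batch the sign turned for Ptprc (-0.0172). Leaving out each library in turn crossed 0 for Rora (-0.161 to 0.352), Rel (-0.374 to 0.233), Hspa8 (-0.0244 to 0.262), Ptprc (-0.11 to 0.128), Ms4a1 (-1.59 to 0.117), Gata3 (-0.0864 to 0.459), Il4 (-0.423 to 0.0948), Mki67 (-0.359 to 1.25), Klf2 (-1.34 to 0.143), Lef1 (-0.163 to 0.0852) and Cd69 (-0.713 to 0.173). The cause of these changes was not tested. Low recovery of simulated small changes limits what a missed call says.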
